A study of Mus musculus with 8 samples.

Results

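The genes described here encode 10 proteins of the borders between endothelial cells: Cdh5, Pecam1, Cldn5, Esam, Tjp1, Ocln, F11r, Jam2, Cd99l2 and Ptprb. They were taken by symbol from the feature list of the second run and matched to the first run by gene identifier, which found each of the 10 among the 30406 genes that both lists hold. They were followed in 8 single-cell RNA sequencing libraries. Each library came from YFP-sorted cells of 6 pooled male ROSA26-eYFP+/+ Cdh5-CreERT2+ mice, all of them given tamoxifen in the food for 2 weeks from 6 weeks of age and then, from 8 weeks of age, 1 of 2 diets for 12 to 13 weeks. The groups were mesentery on normal chow with 5.8% fat (NC_Mes in the plots), mesentery on a high fat diet with 60% fat (HFD_Mes), epididymal adipose tissue on chow (NC_Epi) and epididymal adipose tissue on the high fat diet (HFD_Epi). A letter after a group names the run. Each group had 1 library in run A and 1 in run B, which repeated the experiment. YFP marks cells in which the promoter of Cdh5, a member itself, had driven the Cre recombinase by the time of the tamoxifen. Presence of Cdh5 in the sorted cells was therefore selected for and is not a result. The sources used here do not give the sort gate.

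Endothelial cells are held together by adherens junctions and tight junctions that lie intermingled along the cell border, without the strict layering of epithelia. Adherens junctions rest on VE-cadherin, the product of Cdh5, and tight junctions on claudins, occludin and immunoglobulin-like proteins that the scaffold ZO-1 ties to actin. How tightly these junctions seal differs along the vascular tree: arteries and capillaries of most tissues are tighter than postcapillary venules, where leukocytes and plasma leave the blood, and initial lymphatic vessels have discontinuous, button-like junctions through which fluid and cells enter.

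The run A libraries held 3461360 to 6714473 UMIs and those of run B 18829960 to 36779289. After filters 23113 cells remained, and pairs of libraries shared 0 to 10 barcodes. Clusters were made without the 10 genes. The arterial-like class (2637 cells, led by Gkn3, Col8a1 and Alpl), the capillary-like class (2222 cells, led by Car4), the venous-like class (2754 cells) and the lymphatic-like class (2478 cells) were named from marker genes. The venous-like class joined cluster 7 (led by Cysltr1 and Ackr1), cluster 9 (led by Plac8 and Adgrg6) and the small cluster 25 (led by Glycam1 and Madcam1, addressins of high endothelial venules). A further 7563 endothelial cells stayed without a class name. Cluster 4 and cluster 8 among them carried capillary markers but led with adipocyte genes such as Adipoq and Cfd. They made up 0.23% to 37.4% and 0.29% to 12.5% of the endothelial cells of a library, and cluster 4 was largest in adipose tissue on chow of run B. The sorted cells also held clusters with markers of macrophages, fibroblasts, mural cells, T cells, B cells and adipocytes, against the label of endothelial cells.

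The runs stood apart for some members in every class. Levels are given as CPM, the UMIs of a gene relative to all UMIs summed over the cells of a class in a library, scaled between sums. F11r was higher in run B than in run A in 16 of 16 pairings of class and group, with a median log2 ratio of 2.31 and a range of 1.94 to 2.86. The same held in 16 of 16 pairings for Cdh5, with a median log2 ratio of 1.13, and for Tjp1, with 1.05. Pecam1 had a median of 0.03 and Esam of -0.27. Over 3479 genes with a mean of at least 50 CPM the median was 0.02, and the middle 95% ran from -1.66 to 1.47, so that F11r lay outside this range and Cdh5 and Tjp1 inside it. The headers of the deposited matrices name software version 3.0.2 in run A but 5.0.0 in run B. Software, mice and depth changed together between the runs and cannot be told apart. Classes were therefore compared within each library.

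In lymphatic-like cells most of the genes were lower than in the blood endothelial classes. Of the 9 genes that passed the filter on low counts, 7 were lower and 2 higher in lymphatic-like cells than in the mean of the other 3 classes, beside 22.6% and 23.2% of all 8856 genes tested. The median log2 difference of the 9 was -1.13, against 0.01 over all genes. In arterial-like cells 6 were higher and 0 lower (16.6% and 13.1% of all genes), with a median of 0.62 against 0.00 over all genes. The capillary-like class had 4 higher and 0 lower members (12.6% and 14.5% of all genes). In venous-like cells 4 were higher and 2 lower (16.5% and 9.96% of all genes). A gene was called at an adjusted p under 0.05 in edgeR's quasi-likelihood test over all genes with the library as a block. Since each class is set against the mean of the rest, the low values in lymphatic-like cells raise the differences of the blood classes, so the classes were also compared in pairs. The classes were cut from the same cells on other genes, so these tests compare sums of libraries and do not test the classes themselves.

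**Figure D1:**
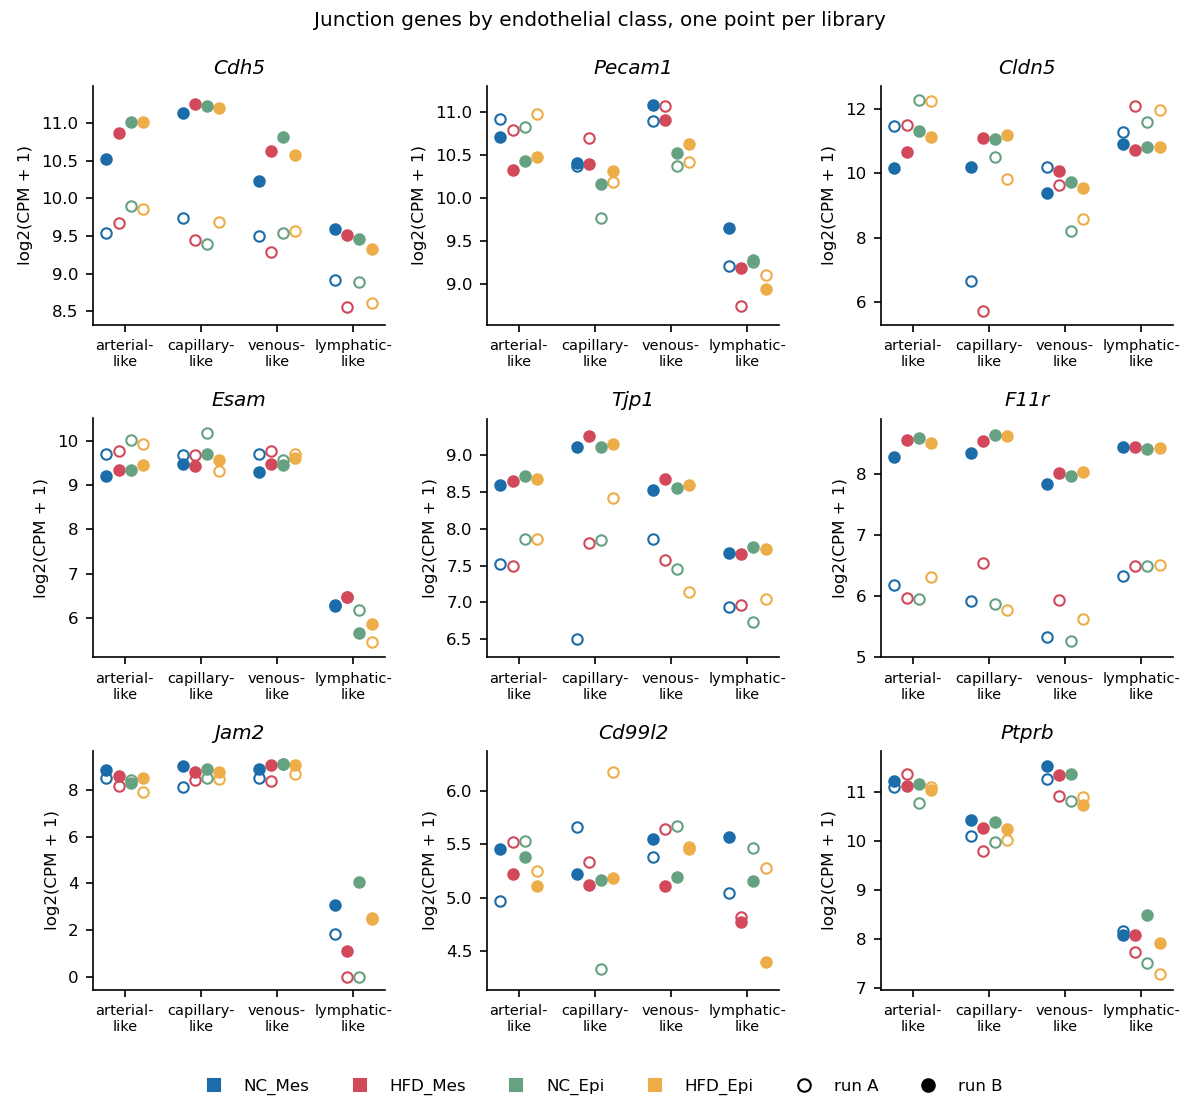
Levels of the 9 junction genes that passed the filter, as log2(CPM + 1) on the y axis, by endothelial class on the x axis; each point is 1 library, coloured by group, open for run A and filled for run B. Esam, Jam2 and Ptprb are far lower in the lymphatic-like class, Cldn5 is lowest in many venous-like sums, and Cdh5, Tjp1 and F11r are split by run within every class.

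Cdh5 encodes VE-cadherin, the adhesion receptor of the adherens junction (chr8:104101625-104144511, + strand, GRCm38). In run A its level was 672 to 854 CPM in capillary-like, 741 to 950.2 in arterial-like, 624 to 757 in venous-like and 377 to 482 in lymphatic-like cells. In run B it was 2242 to 2442, 1471 to 2056, 1202 to 1798 and 639 to 768 CPM in the same order. The lymphatic-like sums lay below all sums of the other classes within each run. Cdh5 was higher in capillary-like than in venous-like cells by 0.42 ± 0.12 (log2, SE; adjusted p = 0.00854), while capillary-like and arterial-like cells, at a difference of -0.14 ± 0.12 for arterial minus capillary, did not pass (adjusted p = 0.56). The difference from venous-like cells was 0.36 without mesentery on chow B (adjusted p = 0.0558) and 0.24 within run A alone (adjusted p = 0.312). Against the other 3 classes, lymphatic-like cells were lower by a log2 difference of -1.13 ± 0.10 (adjusted p = 1.36e-10). The gene overlaps the antisense gene Gm29682 over 4249 bases, and the sources used here do not say how strand was counted.

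Pecam1 encodes PECAM-1, an immunoglobulin-like receptor of the cell border outside the adherens and tight junctions that is also found on leukocytes and platelets (chr11:106654217-106750628, - strand). Its medians over 8 libraries were 1748 CPM in venous-like, 1734 in arterial-like, 1301 in capillary-like and 587 in lymphatic-like cells. Arterial-like and venous-like cells did not differ past the threshold (log2 difference -0.05 ± 0.12, adjusted p = 0.834), and both were above capillary-like cells, by 0.40 ± 0.12 (adjusted p = 0.0245) and, for capillary minus venous, -0.45 ± 0.12 (adjusted p = 0.0065). The arterial-like difference missed the threshold with DESeq2 (0.33, adjusted p = 0.064) and without mesentery on chow A (0.36, adjusted p = 0.0796), adipose on chow A (0.31, adjusted p = 0.0967) or adipose on high fat diet A (0.34, adjusted p = 0.0787). It also missed it within run A alone (0.47, adjusted p = 0.122) and within run B alone (0.17, adjusted p = 0.34). The same held with up to 20% mitochondrial counts (0.34, adjusted p = 0.0743), with DESeq2 size factors (0.33, adjusted p = 0.0715) and with no replicate block (0.39, adjusted p = 0.0893). The venous-like difference missed it within run A alone (-0.29, adjusted p = 0.33). Lymphatic-like cells were lower than the other classes, at -1.40 ± 0.11 (adjusted p = 3.65e-12), and their highest sum of 807 CPM was below the lowest sum of every other class.

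Ptprb encodes VE-PTP, the receptor phosphatase that keeps VE-cadherin and the angiopoietin receptor Tek dephosphorylated (chr10:116275523-116389535, + strand). Levels were 1753 to 2648 CPM in arterial-like and 1708 to 2959 in venous-like cells, 892 to 1384 in capillary-like and 155 to 359.6 in lymphatic-like cells. The capillary-like range did not overlap the other ranges. Arterial-like cells exceeded capillary-like cells by 0.95 ± 0.10 (log2, SE; adjusted p = 4.33e-08) and did not differ from venous-like cells past the threshold (0.01 ± 0.10, adjusted p = 0.989). Lymphatic-like cells were lower than the mean of the rest, at -2.89 ± 0.10 (adjusted p = 3.35e-20).

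Esam and Jam2 encode immunoglobulin-like adhesion proteins of endothelial tight junctions. Esam (chr9:37528078-37538319, + strand) lay between 589 and 1161 CPM in every arterial-, capillary- and venous-like sum and between 42.5 and 87.9 in the lymphatic-like sums. None of the 3 pairs of blood classes passed the test for Esam, with log2 differences between -0.05 and 0.07. Lymphatic-like cells were lower by a log2 difference of -3.52 ± 0.13 (adjusted p = 7.84e-20).

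Jam2 (chr16:84774123-84825928, + strand) encodes JAM-B, a partner of JAM-C and of leukocyte integrins. Its 8 lymphatic-like sums held 33 UMIs in all and ranged from 0.0 to 15.5 CPM, against 239.7 to 556 CPM in all other sums. The log2 difference from the other classes was -6.53 ± 0.26 (adjusted p = 6.43e-19). Venous-like cells had the highest mean, 474 ± 91.7 CPM (SD, n = 8), followed by capillary-like cells with 403 ± 81.2 and arterial-like cells with 347 ± 67.6, and no pair of them differed past the threshold (adjusted p = 0.426 for capillary-like against venous-like, 0.584 for arterial-like against capillary-like and 0.0692 for arterial-like against venous-like). Jam3, which encodes the partner JAM-C and belongs to the wider list below, was higher in capillary-like cells than in the other classes by 2.38 ± 0.29 (adjusted p = 1.33e-07), from means of 321 CPM in run A, in sums of 29 to 78 cells, and 56.1 CPM in run B.

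Cldn5 and F11r were not called lower in lymphatic-like cells. Cldn5 encodes claudin-5, the sealing claudin of endothelial tight junctions (chr16:18776847-18778262, + strand), and F11r encodes JAM-A (chr1:171437535-171464603, + strand). In pairs, lymphatic-like cells passed the threshold for either gene only against venous-like cells. For Cldn5, arterial minus lymphatic was 0.07 ± 0.42 (log2, SE, adjusted p = 0.924). Both genes were higher in lymphatic-like and lower in venous-like cells than in the mean of the other classes. For lymphatic-like cells that mean holds the low venous-like values. Since both genes shared their directions against that mean, the 250 bases before RefSeq's starts are shown, 5′ to 3′ on the gene's strand. They come from RefSeq's table of promoters (GRCm38.p6), which held 5 of the 10 genes. For F11r that start lies inside the gene span given above, so the end of its window overlaps the span. Capitals mark CCAAT and its reverse complement ATTGG.
Cldn5, chr16:18776597-18776846: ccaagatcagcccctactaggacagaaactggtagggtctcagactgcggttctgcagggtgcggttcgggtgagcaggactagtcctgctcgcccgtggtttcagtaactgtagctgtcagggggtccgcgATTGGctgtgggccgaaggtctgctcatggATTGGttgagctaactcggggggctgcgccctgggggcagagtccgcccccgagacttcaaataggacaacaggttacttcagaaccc
F11r, chr1:171437311-171437560: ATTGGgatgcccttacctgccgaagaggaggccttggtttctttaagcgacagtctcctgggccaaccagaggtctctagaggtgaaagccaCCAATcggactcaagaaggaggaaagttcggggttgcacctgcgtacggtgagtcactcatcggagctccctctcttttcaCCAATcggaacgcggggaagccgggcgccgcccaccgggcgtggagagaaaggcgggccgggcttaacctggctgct
CCAAT was found on either strand at 2 places before Cldn5, 118 and 88 bases upstream, and at 3 before F11r, 250, 158 and 77 bases upstream. It was also found at 2 places before Cd99l2, at 1 place in 1 of 2 Ocln promoters and at 0 before Tjp1. That Ocln window lies mostly inside the span of its gene, and the Tjp1 window lies wholly inside the span of Tjp1. Of 32851 promoters of this length, 33.8% held it at least once. GGAAG, the core letters of ETS motifs, was found on either strand 0 times before Cldn5 and 1 time before F11r, and in 64.1% of all. CACCC, core letters of KLF motifs, was found 2 times before Cldn5 and 0 times before F11r (52.0% of all), and ACAAT, core letters of SOX motifs, before neither (27.7% of all). These matches describe letters in a window and not binding.

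The level of Cldn5 was 1154 to 4959 CPM in arterial-like, 1692 to 4382 in lymphatic-like, 52.5 to 2309 in capillary-like and 293 to 1181 in venous-like sums. Venous-like cells were lower than the mean of the other classes by a log2 difference of -1.45 ± 0.38 (adjusted p = 0.00412), lower than arterial-like cells (arterial minus venous 1.83 ± 0.44, adjusted p = 0.00186) and lower than lymphatic-like cells (venous minus lymphatic -1.75 ± 0.44, adjusted p = 0.00166). Capillary-like cells did not differ past the threshold from any other class (adjusted p = 0.109, 0.233 and 0.0758 against arterial-, venous- and lymphatic-like cells), and their run A sums in mesentery rested on 10 and 4 UMIs. Arterial-like cells were higher than the rest by 0.99 ± 0.33 (adjusted p = 0.0239) and lymphatic-like cells by 0.89 ± 0.33 (adjusted p = 0.0296). With up to 20% mitochondrial counts allowed these became 0.56 (adjusted p = 0.0703) and 0.46 (adjusted p = 0.112). That setting also changed the capillary-like class, from 900 to 109 cells in adipose on high fat diet B and from 154 to 1504 in adipose on chow B, and left 3 run A libraries with 8 to 14 such cells, too few for a sum. Within run B alone the differences were 0.37 (adjusted p = 0.0696) and 0.36 (adjusted p = 0.0623), while the venous-like difference kept its call in both runs. Arterial-like cells also missed the threshold without adipose on chow A (0.81, adjusted p = 0.0941) or without adipose on high fat diet A (0.82, adjusted p = 0.0964). Lymphatic-like cells missed it without mesentery on high fat diet A (0.69, adjusted p = 0.0754), adipose on high fat diet A (0.80, adjusted p = 0.0769) or mesentery on chow B (0.91, adjusted p = 0.0524).

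F11r in run B was 228 to 262 CPM in venous-like cells, 312 to 387 in arterial-like, 325 to 401 in capillary-like and 343 to 350.2 in lymphatic-like cells. In run A it was 37.4 to 60.4, 60.6 to 78.5, 53.7 to 91.8 and 79.2 to 89.6 CPM. The venous-like sums of run B lay below all others of that run. The venous-like difference from the other classes was -0.59 ± 0.08 (log2, SE; adjusted p = 1.58e-06), and arterial-, capillary- and lymphatic-like cells did not differ from each other in F11r past the threshold. Within run A alone the arterial-like and capillary-like differences from venous-like cells were 0.56 (adjusted p = 0.0876) and 0.67 (adjusted p = 0.181). The higher level in lymphatic-like cells (0.28 ± 0.08, adjusted p = 0.00488) was 0.10 within run B alone (adjusted p = 0.269) and missed the threshold with no filter on low counts (0.26, adjusted p = 0.0672).

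Tjp1 encodes ZO-1, the scaffold under claudins, occludin and the JAM proteins (chr7:65296165-65527781, - strand). Its run B levels were 551 to 612 CPM in capillary-like, 387 to 419 in arterial-like, 367 to 408 in venous-like and 200.3 to 215 in lymphatic-like cells. The capillary-like and lymphatic-like ranges of run B stood clear of the others. In run A the capillary-like sums spread from 89.4 to 340.1 CPM and overlapped the arterial-like range of 179.5 to 231. Capillary-like cells were higher than the other classes by 0.68 ± 0.11 (adjusted p = 2.22e-05), though not within run A alone (0.44, adjusted p = 0.28), and lymphatic-like cells were lower, at -0.96 ± 0.11 (adjusted p = 2.59e-08). The difference of 0.44 ± 0.14 between capillary- and venous-like cells (adjusted p = 0.0163) missed the threshold without adipose on high fat diet A (0.37, adjusted p = 0.0642) or without any 1 of the run B libraries (0.42 to 0.43, adjusted p = 0.0504 to 0.0672). It was 0.26 ± 0.28 within run A alone (adjusted p = 0.636) and 0.51 with no replicate block (adjusted p = 0.286).

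Cd99l2 encodes a relative of CD99 that takes part in leukocyte passage between endothelial cells (chrX:71420060-71492849, - strand). Its mean level was 42.6 ± 5.85 CPM in venous-like, 40.05 ± 15.2 in capillary-like, 39.0 ± 5.43 in arterial-like and 33.5 ± 8.86 in lymphatic-like cells (SD, n = 8). The lymphatic-like difference of -0.27 ± 0.11 just passed (adjusted p = 0.0475) and was lost in 15 of 17 alternative analyses, where it was -0.30 to -0.18. These included leaving out mesentery on chow A (-0.26), mesentery on high fat diet A (-0.21), adipose on high fat diet A (-0.27), adipose on chow B (-0.29), mesentery on high fat diet B (-0.22) or adipose on high fat diet B (-0.18). The gene overlaps the antisense gene Gm16189 over 30138 bases.

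In pairs of classes, arterial- and capillary-like cells differed in 2 of the 9 genes (16.5% of all genes differed), arterial- and venous-like cells in 2 (26.9%) and capillary- and venous-like cells in 5 (24.5%). Lymphatic-like cells differed in 6 from arterial-like (43.0%), 6 from capillary-like (40.7%) and 9 from venous-like cells (38.5%). The called genes were Ptprb and Pecam1 for the first pair, Cldn5 and F11r for the second, and Cdh5, Tjp1, F11r, Pecam1 and Ptprb for the third.

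**Figure D2:**
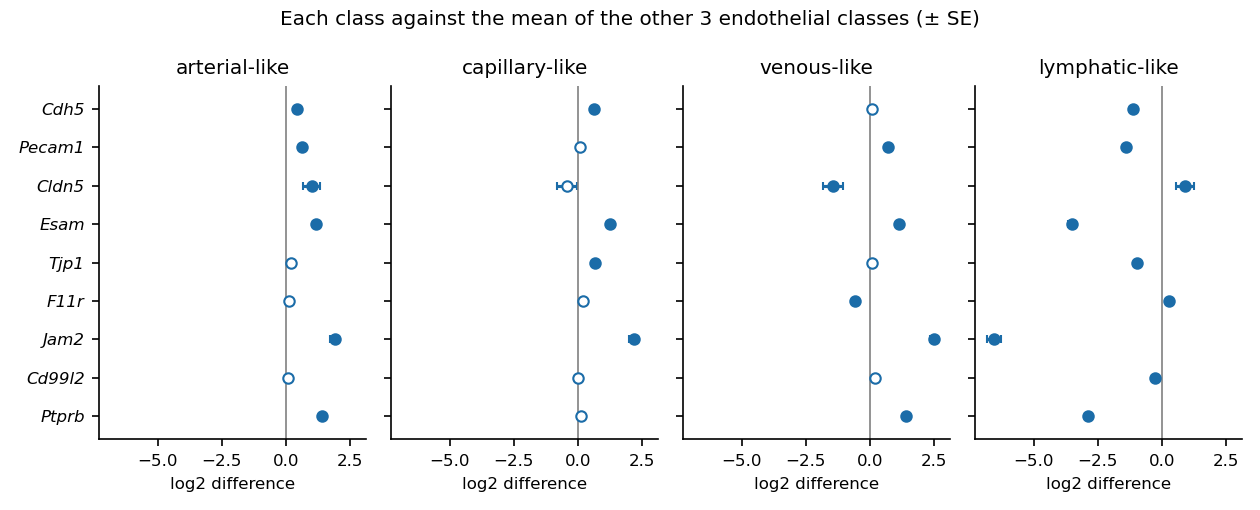
Log2 difference of each endothelial class from the mean of the other 3 (x axis, with standard error) for 9 junction genes, from edgeR with the library as a block; filled points passed an adjusted p of 0.05. Jam2 at -6.53, Esam at -3.52 and Ptprb at -2.89 mark the lymphatic-like panel, and Cldn5 at -1.45 and F11r at -0.59 lie below 0 in the venous-like panel.

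Shares of cells with a UMI were compared in run B after each cell was thinned to 1000 UMIs, which left out 6 capillary-like, 103 arterial-like, 97 venous-like and 40 lymphatic-like cells. Intervals are exact binomial 95% intervals, limits for a count of 0 are 3 counts of the total, and both cover counting error only. Cldn5 was seen in 40.1% (37.8 to 42.5) of venous-like cells, 73.9% of arterial-like, 79.0% of capillary-like and 77.5% of lymphatic-like cells; before thinning the shares were 64.2%, 89.0%, 95.5% and 94.6%. T cell-like cells, which should lack Cldn5, gave 0.67%. Their median depth was 4388 UMIs, close to the 3884 to 4602 of the endothelial classes. Jam2 was seen in 38.8% of venous-like and 38.0% of capillary-like but in 0.82% (0.30 to 1.77) of lymphatic-like cells (2.33% before thinning). That share overlaps the 0.53% of macrophage-like cells and lies within the upper limit of 2.0% that 0 of 150 T cell-like cells allow. It was thus not told apart from the shares in these cells, and its source was not tested. Esam was seen in 6.13% (4.51 to 8.12) of lymphatic-like cells, above the 2.38% of macrophage-like cells, whose median depth was 12306 UMIs. Pecam1 was also seen in 15.1% of B cell-like and 8.0% of T cell-like cells.

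In fibroblast-like cells, Tjp1 was seen in 18.8% and F11r in 16.1% of cells of run B, while Pecam1 was seen in 1.3% and Esam in 0.52%. In run A the shares were 5.31% for Tjp1, 1.77% for F11r, 1.97% for Pecam1, 1.38% for Esam and 5.12% for Cldn5, so that F11r did not stand above Pecam1 there. Cdh5, whose promoter drives the Cre of the sorted reporter, was seen in 21.1% of these cells in run B and 9.84% in run A. Among these was cluster 22, led by Sfrp5, Lypd2 and Igfbp6. In mesentery on chow B its 143 cells had 548 CPM of Cdh5, 683 of Tjp1, 371 of F11r and 19.7 of Ocln but 5.26 of Cldn5 and 5.26 of Esam. Cd99l2 was seen in 4.69% of fibroblast-like cells and 3.67% to 4.66% of cells of the endothelial classes, with overlapping intervals.

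**Figure D3:**
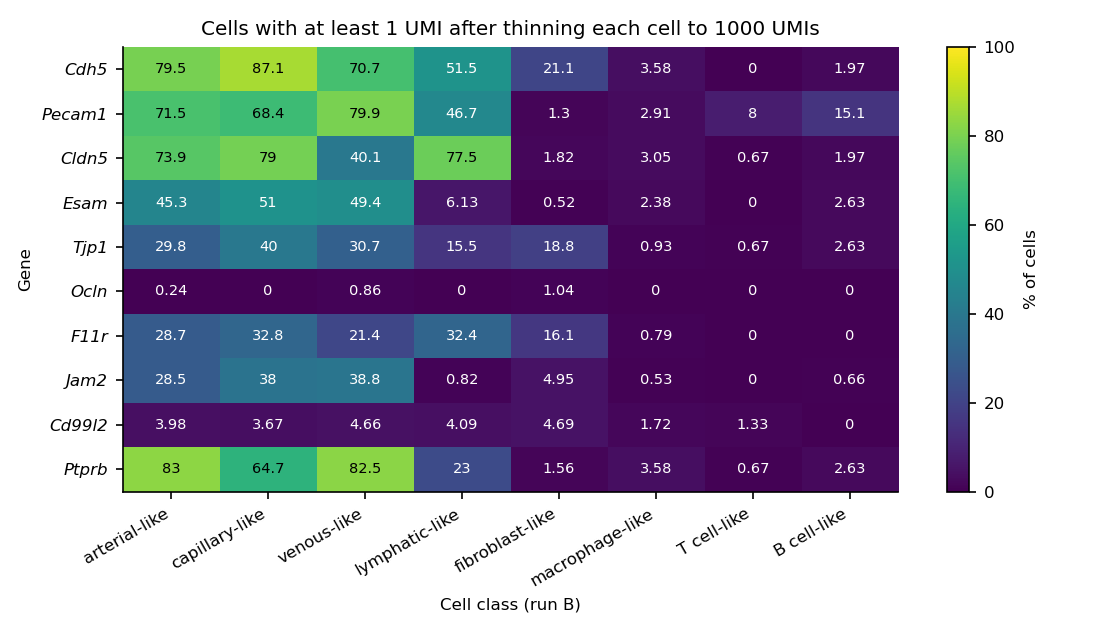
Percent of cells (colour and printed number) with at least 1 UMI of each junction gene after thinning to 1000 UMIs per cell, in 8 cell classes of run B. Ptprb reaches 83.0% in arterial-like cells and 23.0% in lymphatic-like cells, Cldn5 drops to 40.1% in venous-like cells, and Cdh5, Tjp1 and F11r are also seen in fibroblast-like cells.

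Levels also varied within the venous-like class, here as CPM of the cluster's own UMIs, without scaling between sums and with no test, since clusters were cut from these cells. Cluster 25, led by Glycam1 and Madcam1, had 37.3 to 94.0 of Cldn5 in its 3 sums of at least 20 cells, against medians of 693 in cluster 7 and 919.7 in cluster 9. Its Ptprb level was 243 to 328, against medians of 1919.8 and 2972. Pecam1 in cluster 25, at 1443 to 1693, lay within the range of cluster 7 (1144 to 1753) and below that of cluster 9 (1719 to 2549.5). Among endothelial clusters without a class name, cluster 14 (with Ptn and Dcn among its leading genes) had a Cldn5 median of 134, and cluster 15 (led by Klk10 and Adh7) had a Pecam1 median of 3663. Cluster 13 (led by Marco and Bmp2) had 24 UMIs of Jam2 in 567 cells and an Esam median of 33.7, inside the range of 22.4 to 64.5 of the lymphatic-like cluster 5.

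Ocln encodes occludin, the tetraspan protein of tight junctions (chr13:100496507-100552718, - strand), and did not pass the filter in the comparison of classes. Its UMIs came from few clusters. Cluster 9 of the venous-like class held 141, cluster 15 held 95, cluster 14 held 54, the arterial-like cluster 1 held 36 and the fibroblast-like cluster 22 held 20. The other venous-like clusters, 7 and 25, held 3 and 1, the capillary-like cluster 3 held 1 and both lymphatic-like clusters held 0. In run B 0 of 734 thinned lymphatic-like cells had a UMI, which allows a share of up to 0.409%, and 0 of 2044 capillary-like cells, which allows up to 0.147%. Venous-like cells gave 0.86% (0.48 to 1.42), or 4.58% before thinning.

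**Figure D4:**
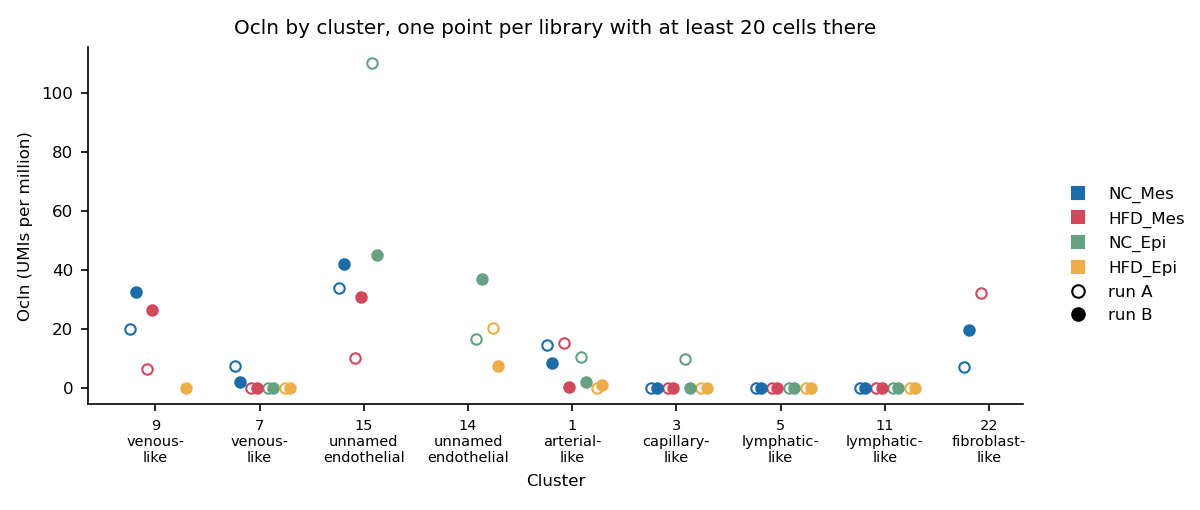
Ocln as CPM of the cluster's own UMIs (y axis) by cluster (x axis), 1 point per library with at least 20 cells in the cluster, coloured by group, open for run A and filled for run B. Cluster 15 reaches 110.1 and cluster 9 reaches 32.7, and both lymphatic-like clusters stand at 0 in every library.

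A wider list of 38 junction partners and regulators gave the surroundings of these genes, and 30 of them were tested between classes. In lymphatic-like cells 8 were higher and 14 lower than in the other classes, in arterial-like cells 10 and 6, in capillary-like cells 8 and 5, and in venous-like cells 5 and 4, beside 23.2% and 22.6%, 16.6% and 13.1%, 12.6% and 14.5%, and 16.5% and 9.96% of all genes. Of 8 adherens partners tested, 3 were higher and 4 lower in lymphatic-like cells, of 8 tight junction partners 4 and 2, and of 11 phosphatase and Rap1 or CCM regulators 1 and 6. Cldn11 had 699 UMIs in the lymphatic-like sums, 35 in the venous-like sums and 1 in each of the arterial- and capillary-like classes, whereas Cldn15 had 5 UMIs in lymphatic-like, 306 in venous-like, 1530 in arterial-like and 2157 in capillary-like sums. Of the adherens partners, Nectin2 was higher in lymphatic-like cells by 2.27 ± 0.12 (adjusted p = 8.82e-16) and lower in arterial-like cells, at -1.83 ± 0.16 (adjusted p = 1.08e-10). Jup, which encodes plakoglobin, was lower in venous-like cells, at -1.59 ± 0.23 (adjusted p = 2.23e-06), and Afdn, which encodes afadin, was higher in capillary-like cells by 1.03 ± 0.13 (adjusted p = 2.83e-07). Heg1, which encodes a transmembrane partner of the CCM complex at junctions, was higher in arterial-like cells by 1.98 ± 0.13 (adjusted p = 2.45e-13) and in venous-like cells by 1.02 ± 0.13 (adjusted p = 3.76e-07). It was lower in lymphatic-like cells, at -3.04 ± 0.17 (adjusted p = 1.97e-15). The phosphatase gene Ptprj was higher in arterial-like cells by 3.90 ± 0.28 (adjusted p = 1.42e-12). Its difference in venous-like cells was 1.58 ± 0.33 (adjusted p = 0.000406), and in lymphatic-like cells it was -3.25 ± 0.55 (adjusted p = 1.07e-05). Ptprj had 366 UMIs in arterial-like, 163 in venous-like, 16 in capillary-like and 9 in lymphatic-like sums. The capillary- and lymphatic-like values that enter these differences thus rest on few counts. Its mean was 60.4 CPM in arterial-like and 12.8 CPM in venous-like cells.

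The genes whose levels ran most like those of the members over the 32 sums of library and class were taken from 3471 genes, as a description across sums that share libraries. Esam was most like Lrrc8c (Pearson r = 0.977) and Mfng (0.972), and Jam2 most like Srgn (0.976) and Palmd (0.974). For Ptprb these were Mrtfb (0.956) and Mecom (0.956), for Pecam1 Anxa3 (0.949) and Heg1 (0.936), for Cdh5 Aqp7 (0.945) and Cd36 (0.941) and for Tjp1 Cd36 (0.884) and Tmem140 (0.872). F11r was most like Rnasek (0.96) and Atp6v0c (0.946). Cdh5, Tjp1 and F11r were each split by run over these sums. Cldn5 reached 0.834 with Cald1 and 0.827 with Nxn, and Cd99l2 at most 0.628 with Usp47 and 0.61 with Pnisr.

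The series concerns an obesogenic diet, and each class was compared between diets within a tissue. With 1 mean per group and 2 libraries each, edgeR called 0 members and 0 genes (0.0%) in all 20 comparisons of diet, tissue and their interaction over the 4 classes. At an unadjusted p under 0.05, 3 to 370 genes passed per comparison, and 4 of 185 tests of members. DESeq2 called 0 members and 0 to 15 genes per comparison, with 5 to 251 genes at an unadjusted p under 0.05. The run letters pair the samples, since the experiment was repeated as a whole, and with the run as a block the fit gave the calls below. The 2 pools of mice of a group came from different runs, so without the block the p-values rest on the spread between pools and runs together. With the block, the shift shared by the libraries of a run is taken out. What remains was not split into pools and other sources.

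No member was called for diet in any class, with or without the block. In arterial-like cells the block fit called 0.91% of genes between mesenteric diets, 0.277% between diets in adipose tissue and 0.0555% for the interaction. Cdh5 in mesentery, compared within each run, differed by 0.11 (run A) and 0.32 (run B) on the log2(CPM + 1) scale, high fat diet minus chow. In adipose tissue it differed by -0.05 and 0.00. Cldn5 differed by -0.01 and 0.47 in mesentery and by -0.04 and -0.18 in adipose tissue, and its fitted diet difference in mesentery with the block was 0.24 ± 0.21 (adjusted p = 1.0). Pecam1 differed by -0.15 and -0.41 in mesentery and by 0.13 and 0.04 in adipose tissue.

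In capillary-like cells the block fit called 0.267% of genes between mesenteric diets, 0.193% in adipose tissue and 0.0594% for the interaction, in venous-like cells 0.272%, 0.146% and 0.0195%, and in lymphatic-like cells 2.13%, 0.0568% and 0.0909%. In lymphatic-like cells Pecam1 was lower on the high fat diet in both runs and both tissues, by -0.46 and -0.45 in mesentery and -0.16 and -0.33 in adipose tissue. Cdh5 and Cd99l2 were lower in all 4 pairings there as well, by -0.36 to -0.06 and by -0.78 to -0.20. F11r was higher in all 4, by 0.17 and 0.03 in mesentery and 0.01 and 0.02 in adipose tissue. How many of all genes kept 1 direction in this way was not counted. None of these passed the test. Ocln in venous-like cells of the mesentery stood at 18.4 and 17.7 CPM on chow (runs A and B). On the high fat diet it stood at 2.68 CPM, from 1 UMI, and at 5.44 CPM. This difference of -1.91 ± 0.57 did not pass with the block (adjusted p = 0.331). Cluster 9, which held most venous-like Ocln, made up 520 of 602 and 500 of 807 venous-like cells in the mesentery on chow and 39 of 85 and 71 of 368 on the high fat diet. Within cluster 9, Ocln was 19.9 and 32.7 CPM on chow and 6.62 (1 UMI) and 26.6 on the high fat diet. The part of the clusters in the difference was not tested.

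On chow, with the run as a block, 1.36% of genes differed between mesentery and adipose tissue in arterial-like, 0.208% in capillary-like, 1.85% in venous-like and 1.81% in lymphatic-like cells. The members called were Cldn5 in arterial- and capillary-like cells and Ocln in venous-like cells, that is 1 of 10, 1 of 9, 1 of 10 and 0 of 8 tested. On the high fat diet 0 members were called and 0.155%, 0.0297%, 0.0778% and 0.193% of genes.

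Cldn5 was lower in mesenteric arterial-like cells. Scaled within the class, its level on chow was 2821 and 1141 CPM in mesentery and 4952 and 2489 CPM in adipose tissue (runs A and B), and on the high fat diet 2805 and 1583 against 4808 and 2192 CPM. Mesentery was the lower tissue in all 4 pairings, while the groups overlap when the runs are not kept apart. Cdh5, Esam and Tjp1 were also lower in mesenteric arterial-like cells in all 4, and Jam2 and Ptprb were higher in all 4. How many of all genes kept their direction in this way was not counted. The log2 difference on chow was -0.97 ± 0.21 with the block (adjusted p = 0.00682) and -0.91 ± 0.63 without it (adjusted p = 1.0). On the high fat diet it was -0.62 ± 0.21 with the block (adjusted p = 0.577), and the interaction of 0.35 ± 0.29 did not pass (adjusted p = 1.0), so the tissues were not shown to differ by diet. The summed level of 8 adipocyte marker genes in arterial-like cells was 630.4 CPM in mesentery on chow B and 2632 in adipose on chow B, against 48.8 and 38.8 in run A, where Cldn5 differed by -0.81. In run A 3 of the 8 markers had counts in each of these libraries, in run B 7 and 8. Mural markers summed to 107 CPM in mesentery and 215 in adipose tissue in run A and to 187 and 418 in run B, erythroid markers to 0.0 and 21.2 and to 86.8 and 992, and fibroblast markers to 63.5 and 77.6 and to 65.1 and 23.8. Mural and erythroid markers were lower in mesentery in both runs, while B cell and T cell markers were higher. B cell markers summed to 9.8 and 36.8 CPM in mesentery against 0.0 and 20.8 in adipose tissue (runs A and B). For T cell markers these were 4.9 and 1.2 against 0.0 and 0.5 CPM. The part of these cells in the result was not tested.

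In capillary-like cells Cldn5 on chow was 108 and 1230.0 CPM in mesentery and 1595 and 2271 CPM in adipose tissue (runs A and B). The difference was -2.08 ± 0.47 with the block (adjusted p = 0.0419) and -1.51 ± 1.37 without it (adjusted p = 1.0). The run A value in mesentery rested on 10 UMIs, and within run B the difference was -0.88. The class also depended on the clustering. At resolution 2.0 it went from 226 to 836 cells in mesentery on chow B. In adipose on chow B it went from 154 to 1765 cells. The fit with the block was not run at that resolution. Adipocyte markers summed to 2108 CPM in mesentery on chow B and 1474 in adipose on chow B, and erythroid markers to 7.5 and 10366 CPM. Their part in the result was not tested.

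Venous-like Cldn5 did not follow this pattern. On chow it was 1117 and 620.2 CPM in mesentery and 266 and 787 CPM in adipose tissue, so that the runs pointed in opposite directions. The mesenteric venous-like cells on chow came mostly from cluster 9 and those of adipose tissue mostly from cluster 7. In mesentery on the high fat diet, cluster 9 gave 39 and cluster 7 gave 26 of 85 cells in run A, and 71 and 289 of 368 in run B.

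**Figure D5:**
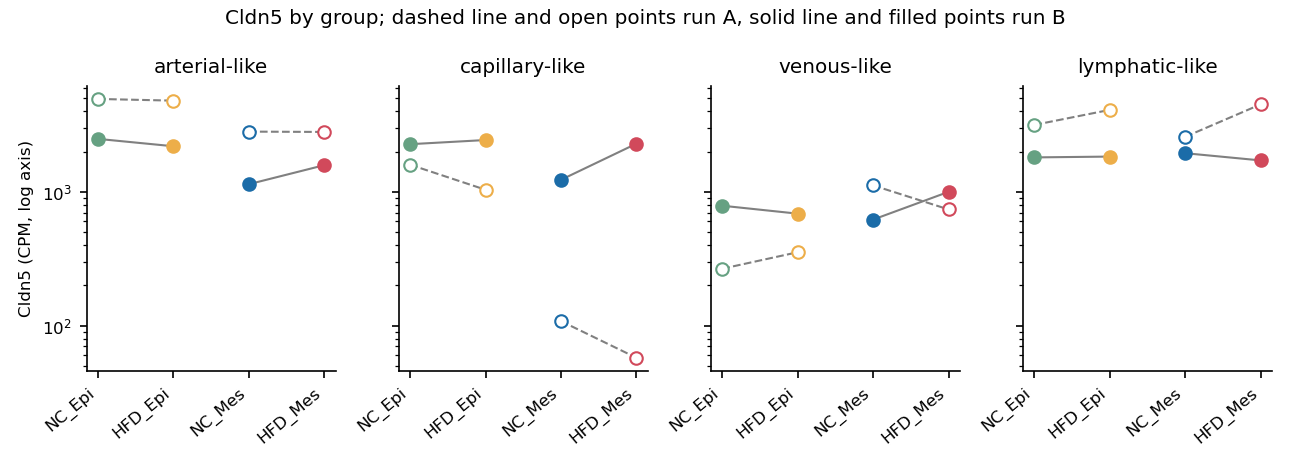
Cldn5 level (CPM, log axis) in the 4 groups for each endothelial class; lines join both diets of a tissue within a run, dashed with open points for run A and solid with filled points for run B. In the arterial-like panel both mesenteric points of a run lie below its adipose points, and in the capillary-like panel the run A mesenteric points fall to 108 and 57.4 CPM.

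Ocln in venous-like cells was higher in mesentery on chow. There were 50 and 79 UMIs in mesentery and 0 and 2 in adipose tissue (runs A and B), a ratio of pooled levels of 16.7 with an exact 95% counting interval of 4.54 to 140. On the high fat diet there were 1 and 13 UMIs in mesentery and 0 in both adipose libraries. With 3 counts over the group taken for adipose tissue, the ratio was 4.0. This leaves out the counting error of the mesentery, so it is not a lower limit like that of the chow interval. The chow difference passed with the block (adjusted p = 0.0212) and not without it (adjusted p = 0.971). Outside this class Ocln was also found in adipose tissue, with 40 UMIs in cluster 14 of adipose on chow B. Cluster 9 had 520 and 500 cells in mesentery on chow, while in adipose tissue on chow 110 of 110 and 264 of 279 venous-like cells were of cluster 7. In venous-like cells on chow, adipocyte markers summed to 10.5 and 394 CPM in mesentery and 16.2 and 2697 in adipose tissue, erythroid markers to 1.4 and 16.7 against 16.2 and 3499, B cell markers to 121 and 37.7 against 0.0 and 18.6, mural markers to 644 and 523 against 729 and 810.3, and mesothelial markers to 42.8 and 8.8 against 0.0 and 1.2. The part of the clusters and of these cells in the result was not tested.

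For diet or tissue, 0 genes of the wider list were called in these classes without the block, and those named here were called with it. Cldn15 was called in arterial-like cells for diet in mesentery and for tissue on chow, Lsr in lymphatic-like cells for the same 2 comparisons, that is 1 of 29 genes tested in arterial-like cells, beside 0.91% and 1.36% of all genes, and 1 of 28 in lymphatic-like cells, beside 2.13% and 1.81%. In venous-like cells 4 of 31 were called for tissue on chow, Cldn15, Lsr, Cgnl1 and Jup, beside 1.85% of all genes. The other comparisons had 0 calls among the 26 to 31 listed genes tested in a class.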

How the data were processed

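Gene by cell matrices of UMI counts were deposited by the authors for 8 10x 3′ libraries, and carry software version 3.0.2 (run A) and 5.0.0 (run B) per the file headers; mm10 and Seurat 4.3.0 stand in the submitters' processing notes, and the sources used here do not say how strand was counted. Cells needed 500 UMIs, 300 genes and at most 10% mitochondrial counts, which kept 23970 of 27944 barcodes, and 857 (3.58%) were removed as doublets. Clusters came from 2000 variable genes without the 10 described genes, scaled within each run, and 30 principal components. These were corrected for run, not for library, and clustered with the Leiden method at resolution 1.0 (scanpy 1.11.5, leidenalg 0.10.2). Classes are rebuilt names that needed at least 3 markers raised 1.5-fold, with limits set after the clusters were seen. Counts were summed per library and class (at least 20 cells) and tested with edgeR 4.0.16 (quasi-likelihood, TMM scaling, filterByExpr, Benjamini-Hochberg adjusted p under 0.05; R 4.3.3), with the library as a block between classes and without a block between groups. DESeq2 1.42.0 was an alternative. The labels call runs A and B repeats of the experiment, and deviations of same-run libraries correlated at r of 0.49 to 0.86. Scripts were tested on simulated data. The genes and lists were chosen with earlier results of these data known, and all 10 genes were named whatever their values, while from the wider list at most the 3 largest called differences per class and direction are named. Likeness was ranked by Pearson correlation among genes of at least 50 CPM, as a description.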

Additional observations from a re-analysis of the deposited data

Results flagged for a closer look

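For 3 pairings of gene and class both runs moved one way with the diet in mesentery and the other way in adipose tissue, a pattern that small differences can give by chance. The diet effect (log2, high fat diet minus chow) in mesentery minus that in adipose tissue was -0.81 for Cd99l2 in capillary-like cells. Within runs A and B it was -0.32 and -0.11 in mesentery and 1.90 and 0.01 in adipose tissue. For F11r in capillary-like cells the difference was 0.23, from 0.63 and 0.19 in mesentery and -0.05 and -0.02 in adipose tissue. For Pecam1 in arterial-like cells it was -0.36, from -0.15 and -0.41 in mesentery and 0.13 and 0.04 in adipose tissue. In edgeR the interaction had an adjusted p of 1.0 for each, with and without the run as a block.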

How the results depend on the processing

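Of 55 called differences of the members between classes, recomputed under 17 alternatives, 870 of 935 values kept their direction and their side of the threshold, 65 lost the call and 0 reversed. The settings with most lost calls were no replicate block (11) and the run A libraries only (9). The fits of run A only and of run B only (6 lost) were chosen after seeing the data. Between tissues on chow, where the fit without a block called 0 members, the run letter as a replicate block called 1 in arterial-like cells (Cldn5), 1 in capillary-like cells (Cldn5) and 1 in venous-like cells (Ocln), and no filter on low counts called 1 in venous-like cells (Ocln). The pairing by run changed no other count of members between diets or tissues. The fit with the block was run in the main setting only, so its calls were not checked under the other settings. Leaving out each library in turn, Cldn5 in the fit without the block was -1.70 to -0.36 in arterial-like and -4.21 to -0.62 in capillary-like cells, and Ocln in venous-like cells 3.97 to 8.00 (log2, mesentery minus adipose tissue on chow). The cause was not tested. Run A, with a sum of as few as 29 cells, limits what capillary-like values can show.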
